A study of Arabidopsis thaliana with 18 samples.

Results

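The comparison described here is the difference between 2 responses to induction of DUO1 in Arabidopsis plants: the response at 24 h minus the response at 6 h, where a response is the log2 signal of induced plants minus that of plants not induced. It was computed for every probe set of the ATH1 array except the control probe sets. The description is kept to the probe sets with a mean signal of at least 20 over the 12 arrays of the 6 h and 24 h groups, 14012 of 22746 tested (61.6%), called members below. Of these, 7516 were named with 1 gene, 286 with several genes and 6210 with none. Just inside the minimum lay AT5G37130 with a mean of 20.01, and just outside it AT1G03760 with 19.99, and 14 probe sets under the minimum, with means of 2.55 to 16.3, also passed the test of the difference.

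All plants in the study were of the Col-0 background and carried DUO1 in pMDC7, a binary vector in which an oestradiol-activated transcription factor drives the inserted gene throughout the plant. The labels give a T-DNA mutation as the genetic variation and whole plants as the tissue. Plants had grown for 12 days in constant light on medium with hygromycin before treatment began. The 12 arrays come from 4 groups of 3: the not induced and the induced plants of each time, and 6 further arrays at 12 h were used only to describe the course between these times. Each time has its own group of plants that were not induced. The annotation pairs no probe set with DUO1 itself, and its level was therefore checked in none of the samples. Plants with the inducer but no DUO1 construct were not among the groups, so an effect of DUO1 and an effect of the inducer itself cannot be told apart. Nothing in the labels ties replicates to separately grown cultures, so a p-value here covers the spread between arrays of a group, which may be technical, and 3 arrays a group limit the precision.

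DUO1 is an R2R3-type MYB transcription factor that is normally restricted to the male germline of pollen, where it is needed for the division of the generative cell and switches on genes of the sperm cells. Placed in seedlings, it acts in cells that do not normally make it, so genes bound directly by DUO1 and genes that act after them can both respond. A difference between the responses at the 2 times can come from the induced plants, from the plants that were not induced, or from both, since each response is taken against plants of the same age.

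The mean signal with the extremes trimmed was 100 on every array, so the deposited values had been set to one overall level. Their likeness in overall signal is therefore no observation. The median signal was 34.3 to 36.5 without and 37.3 to 37.6 with induction at 6 h. At 24 h it was 37.0 to 38.5 without and 38.7 to 39.5 with induction, so induced arrays lay higher at both times. Over the 12 arrays the median signal was 34.3 to 39.5, the background level, defined as the highest signal of the 27 control probe sets whose targets were not added to the RNA, was 3.3 to 10.1, and 72.3% to 83.6% of probe sets lay above it. Replicates of a group correlated at 0.9735 to 0.989 (Pearson's r of log2 signals over probe sets), and the median SD over members was 0.177 and 0.168 on the log2 scale in the 6 h groups without and with induction and 0.134 and 0.154 in the 24 h groups. The hybridisation controls had a mean log2 signal of 8.49 to 8.8 without induction at 6 h and 7.72 to 8.2 without induction at 24 h, and of 7.94 to 8.94 and 7.93 to 8.9 in the induced groups. The covariate taken from these controls was not this mean but the first principal component of their log2 signals, the main axis of their variation between arrays. With it 99 members passed the test instead of 266, and the part of these controls in the result beyond that was not tested. The labelled tissue could be checked on few markers: the chloroplast gene RCA gave signals of 4200.1 to 7311 on every array and the root gene PYK10 3143 to 4337, while the pollen genes ANX1, ANX2 and ACT12 lay at or below background on at least 11 of the 12 arrays. The fourth pollen marker found, AGL65, lay above background on all 12, at 11.8 to 25.2. The summed signal of the 3 root markers found, of 10 listed, was 3171 to 3386 in induced plants at 24 h, below the 3891 to 4164 of plants not induced at 24 h and the 3644 to 4364 of induced plants at 6 h. This sum is nearly all PYK10, with a median of 3716 against 17.2 for EXPA7 and 32.5 for EXPA18. The difference between the responses of PYK10 was -0.25 and did not pass (adjusted p = 0.652). In whole plants fewer cells of a type and less RNA per cell cannot be told apart, and the part of this lower sum in the results below was not tested.

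The responses at 24 h and 6 h differed in 266 members (1.9% of the 14012 members, and 280 or 1.23% of all tested probe sets, in limma's moderated test with Benjamini-Hochberg adjustment over all tested probe sets and a threshold of 0.05). The response was higher at 24 h in 142 of them (1.01% of members) and lower in 124 (0.885%). Among the members with 1 gene, 123 passed, 64 higher and 59 lower (1.64%, 0.852% and 0.785% of the 7516). Of all members, 328 reached the mean signal of 20 only through their highest group, among them 9 of the 142, all through induced plants at 24 h, and 2 of the 124, both through plants not induced at 24 h. Such members had to differ between groups and are no support for the counts. The difference was at least 2-fold in 90 of the 142 and 71 of the 124, and its median was 1.12 and -1.1 on the log2 scale, against -0.02 over all members. The count rested on moderating the spread with an intensity trend: without the trend 19 members passed. It also changed with single arrays, from 95 without induced 24 h replicate 3 to 432 without induced 24 h replicate 1.

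Most members that passed had a called response at 24 h, and few had one at 6 h. By the same test the induction response itself was called at 6 h in 0.906% of members and at 24 h in 10.3%. Over all tested probe sets it was called in 0.664% at 6 h (0.391% higher and 0.273% lower) and 7.27% at 24 h (3.89% higher and 3.39% lower). Of the 266, 237 were called at 24 h, each in the direction of the difference, beside 10.3% of all members. At 6 h 26 were called (9.77%), beside 0.906% of all members, and 21 were called at neither time. The same 6 h and 24 h arrays enter the difference and these responses, so the counts are a description and carry no test. Seen from the other side, 237 of the 1437 members called at 24 h (16.5%) had a called difference. The median response of the 142 higher members was -0.17 at 6 h and 1.07 at 24 h, and that of the 124 lower members was 0.07 and -1.06. The sign of the response was opposite at the 2 times in 92 of the 142 and 72 of the 124, but only 22 and 6 of these reached 0.5 on the log2 scale at both times.

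**Figure D1:**
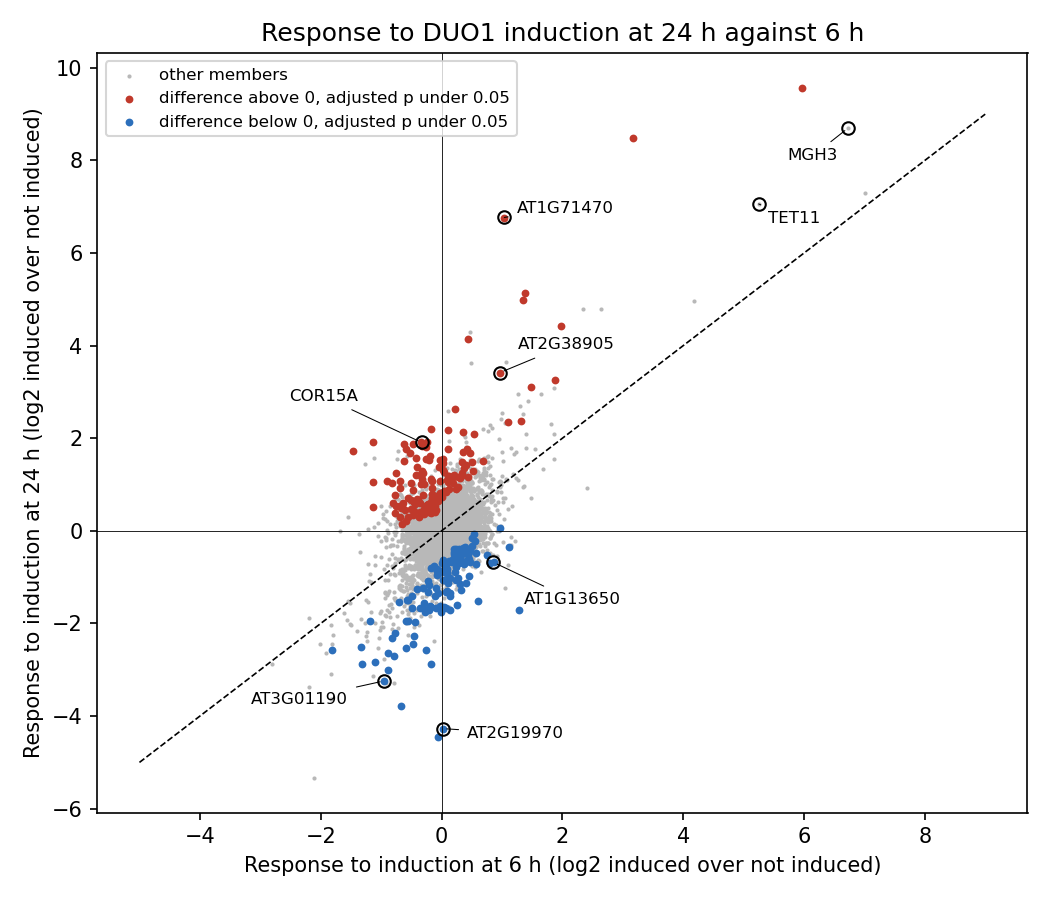
Response to induction at 6 h (horizontal axis) and at 24 h (vertical axis) of the 14012 members, both as log2 of induced over not induced plants (difference of group means, 3 arrays each). The 142 members with a called positive difference (red) lie above the dashed line of equal responses and the 124 with a called negative difference (blue) below it, most of them near 0 on the horizontal axis, while MGH3 and TET11 lie far to the right in grey.

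The sperm cell genes MGH3 and TET11 were already responding at 6 h. TET11 reached the minimum of 20 only through induced plants at 24 h (mean of the others 18.3). The remaining sperm gene found, TET12, was no member and had signals of 0.43 to 16.2 over the 12 arrays, with 5 at background and fitted responses of -2.32 at 6 h and -1.18 at 24 h. MGH3 (AT1G19890), a histone H3 variant of sperm cells, had signals of 4.75, 0.75 and 1.28 without induction and 144, 187 and 202 with induction at 6 h. At 24 h the 3 arrays without induction gave 0.88, 2.84 and 0.90 and the induced arrays 563, 447 and 643. Every array without induction was at or below background, so the response was at least 27.6-fold at 6 h and at least 124-fold at 24 h. The difference between the responses was 1.97 ± 0.77 (log2, SE) and did not pass (adjusted p = 0.271). TET11 (AT1G18520), a tetraspanin membrane protein found in sperm cells, had induced signals of 31.4, 51.1 and 66.7 at 6 h and 199, 176 and 204 at 24 h. Its levels without induction were at or below background on 5 of the 6 arrays, the response at 24 h was at least 44.0-fold, and the difference of 1.81 ± 1.28 did not pass (adjusted p = 0.605). The size of these differences depended on signals too low to measure: with signals raised to the background level both passed, at 2.17 (adjusted p = 2.6e-05) for MGH3 and 2.80 (adjusted p = 2.5e-05) for TET11. With 5 added to every signal MGH3 also passed (1.73, adjusted p = 0.0179). On the arrays without induction the background level was 5.3 to 7.1 at 6 h and 4.1 to 4.6 at 24 h. That drop enters both raised values, and raised signals carry the spread of the background level. The calls with raised signals are therefore no support for a difference. Induced plants alone changed by 1.63 ± 0.54 in MGH3 (adjusted p = 0.0938) and 2.02 ± 0.9 in TET11 (adjusted p = 0.231).

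AT1G71470 had the most positive difference among named members, but reached the mean signal of 20 only through induced plants at 24 h, the other 3 groups averaging 2.8. Without induction its signals were 1.12, 0.92 and 6.32 at 6 h and 1.1, 1.01 and 0.42 at 24 h, all at or below background. With induction they were 1.36, 6.48 and 6.42 at 6 h and 66.7, 97.1 and 93.0 at 24 h, where all 3 arrays stood above every other array. The response at 24 h was at least 19.3-fold, and the fitted difference was 5.73 ± 1.11 (adjusted p = 0.0217), a value that depends on signals below background. The call was lost when not induced 24 h replicate 3, induced 24 h replicate 2 or induced 24 h replicate 3 was left out (5.29, 5.63 and 5.66).

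Among named members with a higher response at 24 h, COR15A, a gene of cold and dehydration, was the brightest. COR15A (AT2G42540), a chloroplast protein that accumulates in cold and drought, gave 4164, 4501 and 4715 without induction and 2789, 4145 and 3834 with induction at 6 h, and the groups did not overlap. At 24 h it gave 695, 466 and 465 without induction and 2183, 2142 and 1714 with induction. Its level in plants that were not induced thus fell by 3.07 ± 0.18 on the log2 scale between the times (adjusted p = 2.96e-07) and in induced plants by 0.82 ± 0.18 (adjusted p = 0.00922). For comparison, such a change was called in 8.26% of all tested probe sets without and 6.64% with induction. The response was -0.33 ± 0.18 at 6 h and 1.91 ± 0.18 at 24 h, and the difference was 2.24 ± 0.25 (adjusted p = 0.0005). The gene AT3G02480, of the late embryogenesis abundant family, had a similar course, from 151, 1000.4 and 224 without induction at 6 h to 20.3, 17.2 and 15.1 at 24 h. Induced plants gave 145, 90.6 and 241 and then 79.3, 43.2 and 84.0, so that the groups overlapped at 6 h and were separate at 24 h. The 6 h array at 1000.4 stands far from its replicates, and the difference of 3.06 ± 0.72 passed narrowly (adjusted p = 0.049). It was lost on leaving out any of 9 arrays, at 2.72 to 3.37 (adjusted p 0.059 to 0.134), not including that array, and with the replicate block.

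Other members showed the same pattern of a loss without induction that was smaller or not seen with induction. AT1G51090, of a family with a heavy-metal-associated domain, averaged 70.1 without and 46.7 with induction at 6 h, and 14.9 and 50.3 at 24 h. Its level without induction fell by 2.24 ± 0.22 (adjusted p = 1.23e-05), its change with induction was 0.12 ± 0.22 (adjusted p = 0.833), and the responses differed by 2.36 ± 0.31 (adjusted p = 0.00179). For AT1G16850 the means were 114 and 79.5 at 6 h and 21.9 and 72.5 at 24 h, with a difference of 2.19 ± 0.34 (adjusted p = 0.00435). That call was lost with the hybridisation controls as a covariate. EXLB1 (AT4G17030), an expansin-like protein of the cell wall, gave 229, 248 and 289 without and 253, 263 and 235 with induction at 6 h. The 24 h signals were 117, 126 and 133 without and 267, 228 and 295 with induction, where the groups no longer overlapped. Its level without induction fell by 1.02 ± 0.11 (adjusted p = 3.98e-05), and the responses differed by 1.09 ± 0.16 (adjusted p = 0.00349). AT2G46600, of the EF-hand calcium-binding family, averaged 753 and 724 at 6 h and 437 and 710.4 at 24 h, and its difference of 0.74 ± 0.16 (adjusted p = 0.0322) was lost on leaving out any of 9 arrays (0.638 to 0.779, adjusted p 0.0515 to 0.0833).

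In AT4G33550 and AT2G37870, both of the lipid transfer protein family of small secreted proteins that bind lipids, the level fell without and rose with induction. The list of this family matched no probe set, so nothing is shown of its other members. AT4G33550 gave 137, 156 and 152 without and 114, 128 and 115 with induction at 6 h, so that induced plants were lower on every array. Its 24 h signals were 73.6, 65.8 and 62.7 without and 213, 241 and 268 with induction. It fell by 1.14 ± 0.11 without induction (adjusted p = 1.23e-05) and rose by 1.01 ± 0.11 with induction (adjusted p = 3.12e-05), and its difference of 2.15 ± 0.16 had the lowest adjusted p of all named members (9.1e-06). AT2G37870 behaved in the same way, with 152, 196 and 173 against 87.4, 128 and 127 at 6 h and 60.4, 78.2 and 52.6 against 209.7, 218 and 268 at 24 h. Its response was -0.62 ± 0.17 at 6 h, short of the threshold (adjusted p = 0.12), and 1.87 ± 0.17 at 24 h (adjusted p = 3.41e-06). The difference was 2.49 ± 0.24 (adjusted p = 0.000105), and the calls of both genes held in all 22 alternatives.

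A further set of genes had the larger change in the induced plants. AT2G38905, of a family of small membrane proteins responding to low temperature and salt, gave 7.71, 8.35 and 8.1 without and 14.6, 17.1 and 15.5 with induction at 6 h. At the later time they were 4.89, 5.12 and 6.71 against 55.0, 65.7 and 56.8. The mean of the other 3 groups, 9.79, was under the minimum, so it too was a member only through induced plants at 24 h. The groups were separate at both times, the level with induction rose by 1.91 ± 0.29 (adjusted p = 0.000591), and the responses differed by 2.45 ± 0.41 (adjusted p = 0.00747). AT1G80130, a tetratricopeptide repeat protein, gave 83.6, 69.8 and 107 against 63.3, 82.9 and 81.9 at 6 h, where the groups overlapped. At 24 h it gave 48.7, 153 and 91.6 against 287, 434 and 528. Its change without induction was 0.04 ± 0.31 (adjusted p = 0.961), with induction it rose by 2.42 ± 0.31 (adjusted p = 0.000118), and the difference was 2.38 ± 0.44 (adjusted p = 0.0165, lost without induced 24 h replicate 3 at 2.18). The call was also lost with the hybridisation controls as a covariate.

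The alpha/beta hydrolase family member AT5G22460 averaged 43.3 and 27.9 at 6 h and 44.1 and 103 at 24 h, a difference of 2.01 ± 0.45 (adjusted p = 0.04). AT3G12510 averaged 17.1 and 14.0 and then 12.2 and 42.8, a difference of 2.08 ± 0.42 (adjusted p = 0.0264), and was a member only through induced plants at 24 h (mean of the others 14.4). For AT1G11210 the means were 27.5 and 19.7 and then 22.2 and 66.9, a difference of 2.0 ± 0.41 (adjusted p = 0.03). At 6 h induced plants were lower on every array for AT5G22460 and the groups overlapped for the other 2, and in all 3 the induced arrays stood above the others of the same time at 12 h and 24 h. These calls were lost on leaving out any of 7, 5 and 7 arrays, at 1.79 to 2.1, 1.89 to 2.16 and 1.66 to 1.96. ACT11 (AT3G12110), an actin best known from reproductive tissue, gave 116, 99.5 and 97.2 against 132, 139 and 114 at 6 h and 79.7, 88.4 and 77.1 against 166, 166 and 209 at 24 h. Its difference was 0.83 ± 0.17 (adjusted p = 0.0309), and was lost on leaving out any of 6 arrays (0.721 to 0.89) and with the replicate block. CYS1 (AT5G12140), an inhibitor of cysteine proteases, averaged 598 and 554 at 6 h and 531 and 769 at 24 h, and its difference of 0.64 ± 0.15 (adjusted p = 0.0478) was the least stable named result, lost on leaving out any of 10 arrays (0.541 to 0.712, adjusted p 0.0635 to 0.141) and with the replicate block.

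**Figure D2:**
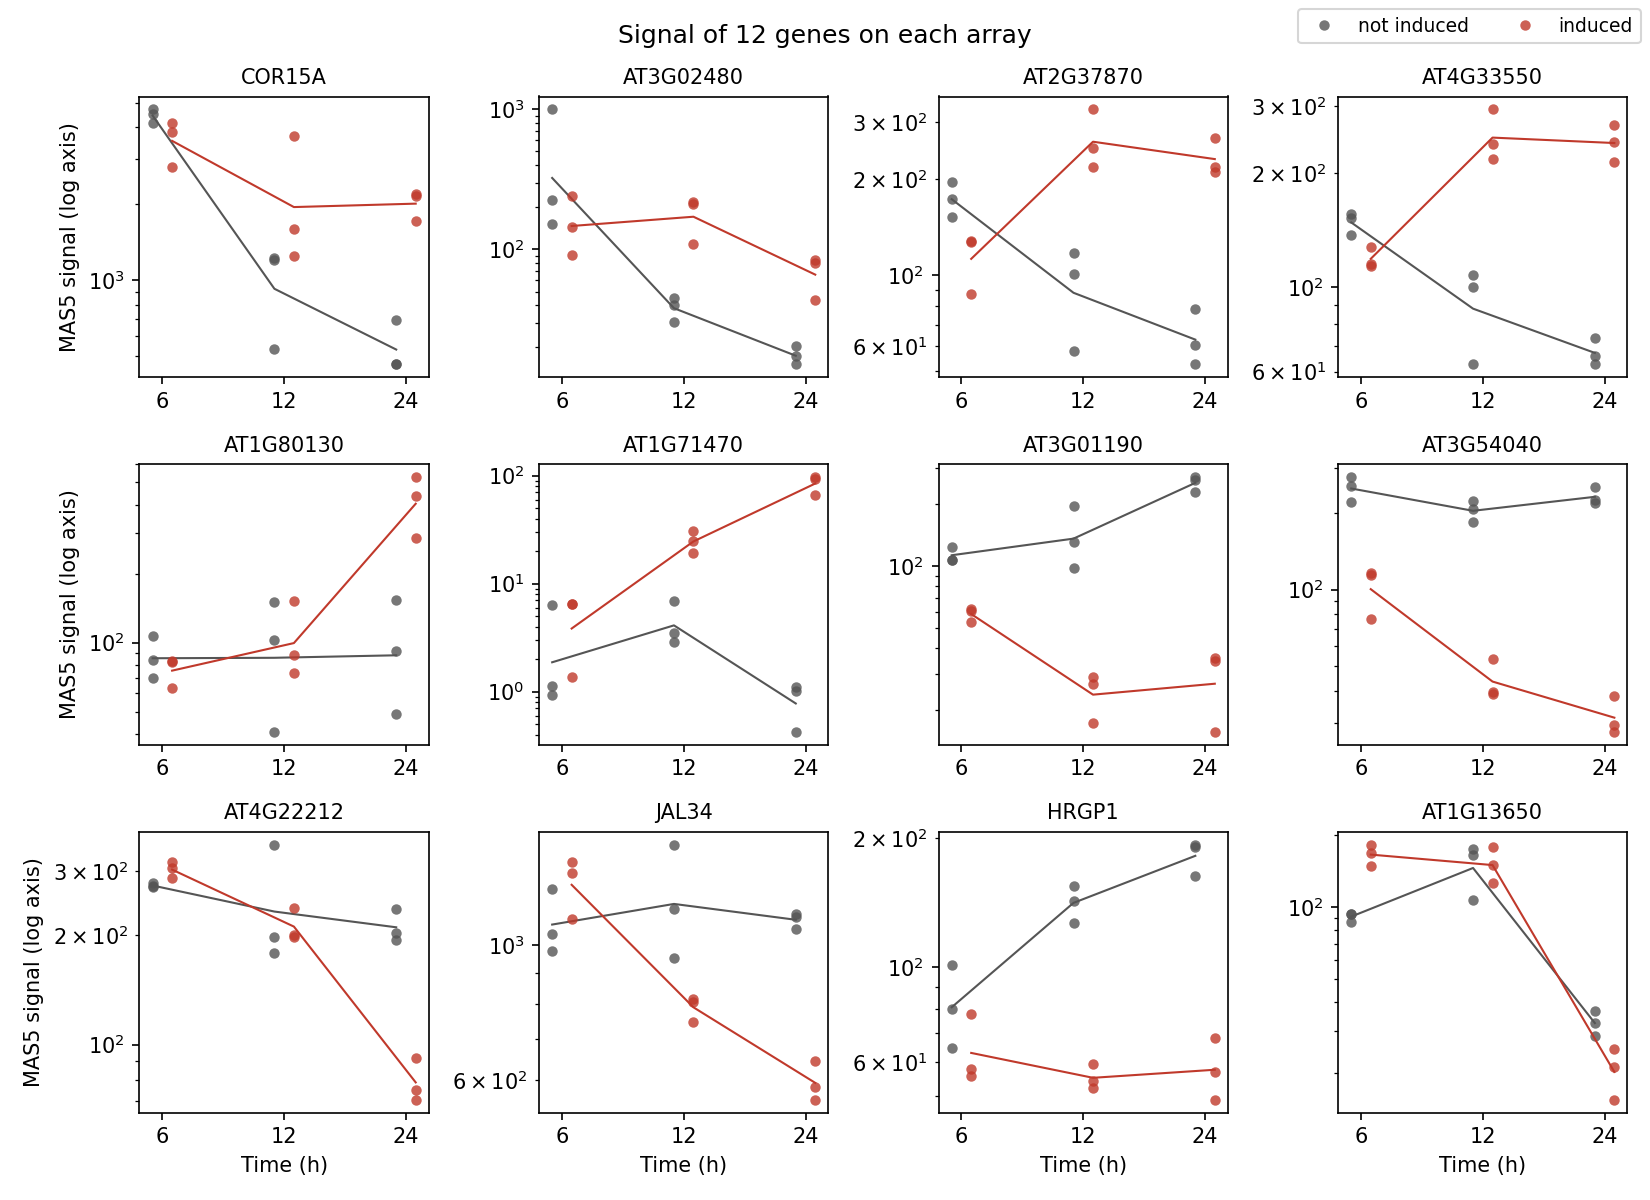
MAS5 signal (log axis) of 12 named genes on each array at 6 h, 12 h and 24 h, with grey points and lines for plants without induction and red ones for induced plants (3 arrays a group, lines through the geometric means). COR15A and AT3G02480 decline in grey, AT1G80130 and AT1G71470 rise in red, and AT3G54040 and JAL34 decline in red.

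The members with a lower response at 24 h included class III peroxidases, secreted enzymes that use hydrogen peroxide to modify wall polymers. The peroxidase AT3G01190 gave 125, 108 and 108 without and 62.4, 60.8 and 53.5 with induction at 6 h. At 24 h it gave 230.1, 264 and 272 without and 36.1, 34.6 and 15.7 with induction, so the groups were separate at both times. It rose by 1.16 ± 0.23 without induction (adjusted p = 0.00456) and fell by 1.12 ± 0.23 with induction (adjusted p = 0.00631), and the responses differed by -2.29 ± 0.32 (adjusted p = 0.00328). The peroxidase AT5G64120 had means of 231 and 130 at 6 h and 176 and 37.7 at 24 h. Its difference of -1.48 ± 0.34 (adjusted p = 0.0442) was lost on leaving out any of 10 arrays, at -1.61 to -1.38 (adjusted p 0.0518 to 0.0977), and with the replicate block. Not all called peroxidases went this way: AT5G51890 had a positive difference (0.87 ± 0.19, adjusted p = 0.0363).

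HRGP1 (AT3G54590), a hydroxyproline-rich wall glycoprotein, gave 64.9, 79.8 and 101 without and 77.7, 57.9 and 55.7 with induction at 6 h. By 24 h it gave 191, 193 and 163 without and 49.0, 68.4 and 57.0 with induction. Here the level without induction rose by 1.17 ± 0.17 (adjusted p = 0.000587) while the change with induction was -0.13 ± 0.17 (adjusted p = 0.761), and the responses differed by -1.31 ± 0.25 (adjusted p = 0.02). That call was lost without not induced 24 h replicate 2 (-1.26) or induced 24 h replicate 3 (-1.3). The extensin-like AT1G23720 averaged 49.5 and 46.1 at 6 h and 110.5 and 34.4 at 24 h, with a difference of -1.58 ± 0.35 (adjusted p = 0.0426) that was lost on leaving out any of 10 arrays (-1.71 to -1.36) and with the replicate block. Both are measured by probe sets of the x type, whose probes can also match related genes, so their values are uncertain as to the gene. UGT72E1 (AT3G50740), a glycosyltransferase of lignin precursors, averaged 84.7 and 105 at 6 h and 170.4 and 113 at 24 h. It rose by 1.0 ± 0.11 without induction (adjusted p = 4.94e-05), and the difference was -0.9 ± 0.16 (adjusted p = 0.0129). The call of UGT72E1 was lost with the hybridisation controls as a covariate.

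AT2G19970 and AT1G52060 had the most negative differences among named members. AT2G19970, of the family of secreted proteins that includes pathogenesis-related protein PR1, gave 42.0, 32.4 and 15.5 without and 34.7, 23.2 and 27.6 with induction at 6 h. By 24 h they were 92.8, 90.4 and 94.9 without and 0.89, 10.0 and 12.3 with induction. The groups overlapped at 6 h and were far apart at 24 h, where the lowest induced array was at background. The difference of -4.3 ± 0.97 (adjusted p = 0.0433) was lost on leaving out any of 9 arrays, at -4.6 to -3.88, and with the replicate block. The jacalin-like lectin AT1G52060 averaged 40.7 and 25.5 at 6 h and 74.3 and 5.98 at 24 h, where 2 of 3 induced arrays were at background, a difference of -3.1 ± 0.59 (adjusted p = 0.02) that was lost without not induced 24 h replicate 3 (-3.07).

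A second jacalin-like lectin, JAL34 (AT3G16460), was among the brightest, with 1044, 1237 and 976 without and 1102, 1315 and 1367 with induction at 6 h. By 24 h the signals were 1126, 1063 and 1112 without and 643, 583 and 556 with induction. Its change without induction was 0.03 ± 0.11 (adjusted p = 0.933), with induction it fell by 1.08 ± 0.11 (adjusted p = 2.44e-05), and the difference was -1.11 ± 0.16 (adjusted p = 0.00349). The defensin-like AT4G22212 gave 272, 278 and 270.4 against 305, 317 and 286 at 6 h, with induced plants higher on every array, and 235, 203 and 194 against 92.1, 75.1 and 70.5 at 24 h. Its responses were 0.15 ± 0.11 and -1.41 ± 0.11, and they differed by -1.56 ± 0.15 (adjusted p = 0.000105).

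In AT5G48430, AT1G51830 and GSTU22 the level fell with induction. AT5G48430, of the aspartyl protease family, gave 122, 108 and 107 without and 67.5, 70.9 and 46.3 with induction at 6 h, and 41.4, 46.1 and 47.5 against 4.84, 5.03 and 7.03 at 24 h. It fell in both arms, with a change of -1.32 ± 0.21 without (adjusted p = 0.000849) and -3.45 ± 0.21 with induction (adjusted p = 1.41e-07), and the difference was -2.13 ± 0.29 (adjusted p = 0.00254), with 2 of 3 induced arrays at background at 24 h. The leucine-rich repeat receptor-like kinase AT1G51830 averaged 50.2 and 36.8 at 6 h and 65.1 and 13.5 at 24 h, a difference of -1.81 ± 0.27 (adjusted p = 0.00362). The tau-class glutathione transferase GSTU22 (AT1G78340), of a family that conjugates glutathione to reactive compounds, was already lower at 6 h, with 228, 227 and 256 against 179, 165 and 134 (response -0.58 ± 0.12, adjusted p = 0.0408). At 24 h it gave 197, 208 and 198 against 51.7, 59.9 and 46.4, and the response of -1.94 ± 0.12 was larger by -1.36 ± 0.17 (adjusted p = 0.00135).

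AT3G54040, of the PAR1 family named after a photoassimilate-responsive gene of tobacco, was also lower at both times. It gave 277, 220.2 and 255 against 114, 116 and 76.7 at 6 h and 224, 253 and 219 against 29.5, 27.6 and 38.2 at 24 h. The response went from -1.31 ± 0.16 (adjusted p = 0.000619) to -2.88 ± 0.16 (adjusted p = 4.84e-08), a difference of -1.56 ± 0.23 (adjusted p = 0.00349). The acid phosphatase family member AT5G44020 averaged 914 and 738 at 6 h and 1097 and 351 at 24 h, a difference of -1.36 ± 0.18 (adjusted p = 0.00212). AT2G10940, of the protease inhibitor and lipid transfer family, averaged 2212 and 2316 and then 1976 and 1169, a difference of -0.81 ± 0.17 (adjusted p = 0.029) that was lost on leaving out any of 7 arrays (-0.877 to -0.706). Unlike in AT4G33550 and AT2G37870, its change was negative in both arms (-0.17 ± 0.12, adjusted p = 0.436, and -0.98 ± 0.12, adjusted p = 6.97e-05).

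The universal stress protein family member AT3G25930 averaged 36.1 and 36.8 at 6 h and 61.2 and 19.8 at 24 h, so that it rose without (0.76 ± 0.21, adjusted p = 0.0339) and fell with induction (-0.92 ± 0.21, adjusted p = 0.013). The difference was -1.68 ± 0.3 (adjusted p = 0.0122). AT5G66985 averaged 76.8 and 77.1 and then 82.3 and 24.2, a difference of -1.75 ± 0.25 (adjusted p = 0.00349), with a change of -1.65 ± 0.18 with and 0.1 ± 0.18 without induction. MSRB6 (AT4G04840), a methionine sulfoxide reductase that repairs oxidised proteins, averaged 141 and 173 and then 128 and 56.5. Its difference of -1.59 ± 0.37 (adjusted p = 0.049) was lost on leaving out any of 9 arrays (-1.64 to -1.38, adjusted p 0.0711 to 0.136) and with the replicate block.

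A called response in opposite directions at the 2 times was rare. Of the 127 members called at 6 h, 91 were called in the same direction at 24 h and 3 in the opposite one. Among all members 10.3% were called at 24 h in either direction. A called difference was found in 26 of the 127 (20.5%), beside 1.9% of all members. The same 6 h arrays enter both calls, so that share is a description and carries no test. AT1G13650 was among the 3, with 93.2, 93.0 and 86.7 without and 168, 182 and 148 with induction at 6 h and 36.5, 32.7 and 28.8 against 25.3, 21.3 and 15.5 at 24 h. The groups were separate at both times, with induced plants above at 6 h (0.86 ± 0.17, adjusted p = 0.0308) and below at 24 h (-0.68 ± 0.17, adjusted p = 0.0228). The difference was -1.54 ± 0.24 (adjusted p = 0.00514). Its level fell between the times in both arms, with changes of -1.48 ± 0.17 without and -3.02 ± 0.17 with induction (adjusted p = 6.32e-05 and 1.12e-07).

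Over the 266 members neither arm had the larger change more often, but the higher and lower members were split differently. The change from 6 h to 24 h was larger in plants that were not induced for 133 and larger in induced plants for the other 133, and over all members it was larger without induction in 53.6%. It was larger without induction in 80 of the 142 higher members and in 53 of the 124 lower members. For the 142 higher members the signal without induction was lower at 24 h than at 6 h in 124 and the signal with induction was higher in 111, with medians of -0.67 and 0.49 on the log2 scale. For the 124 lower members the signal without induction was higher in 102 and with induction lower in 109, with medians of 0.42 and -0.66. The arms moved in opposite directions in 180 of the 266. Over all members the medians of these changes were 0.06 and 0.03, and since both changes enter the difference the counts are a description and carry no test.

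**Figure D3:**
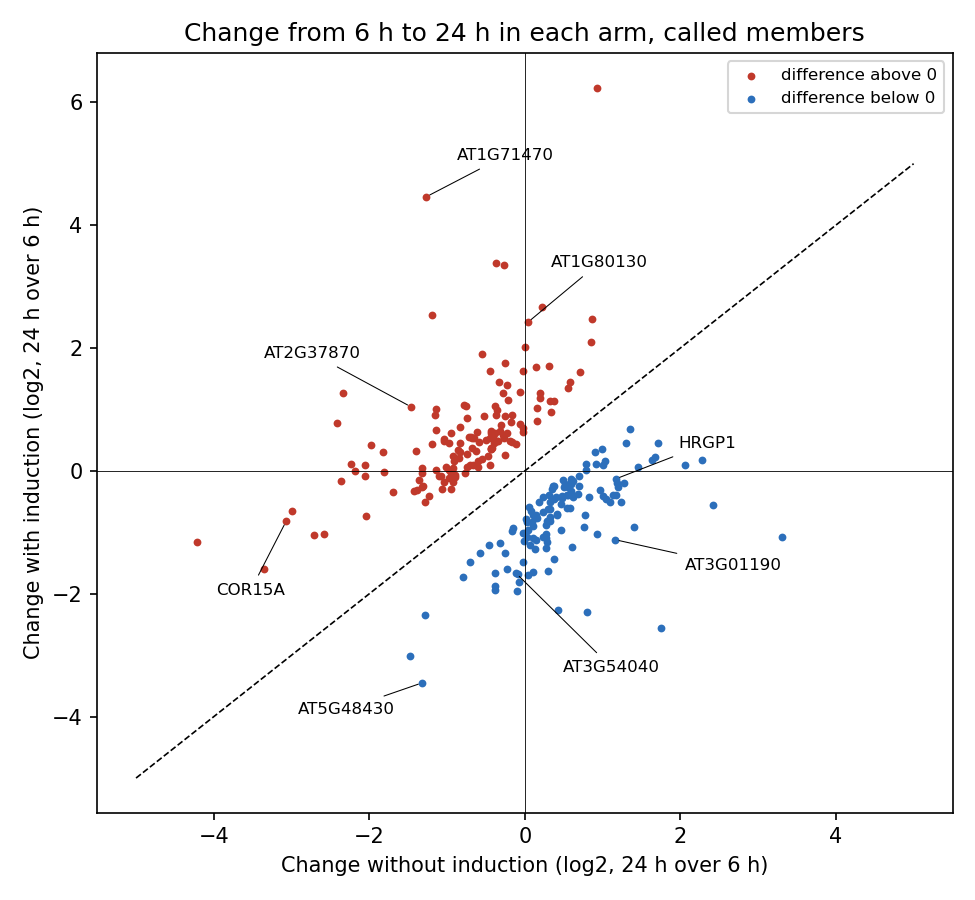
Change from 6 h to 24 h without induction (horizontal axis) and with induction (vertical axis), both log2, for the 266 members with a called difference (red above 0, blue below 0, dashed line at equal change). Red points spread to the left and upwards and blue points to the right and downwards, with COR15A far to the left, AT1G80130 near 0 on the horizontal axis and AT5G48430 low in both arms.

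The 12 h arrays, which did not enter the fit, placed most of these members between the other times. Their response at 12 h had the sign of the difference in 125 of the 142 higher members (88.0%, against 53.4% of all members above 0) and 115 of the 124 lower members (92.7%, against 46.6% below 0). Medians at 6 h, 12 h and 24 h were -0.17, 0.56 and 1.07 for the higher and 0.07, -0.55 and -1.06 for the lower members. In 237 of the 266 the 12 h value lay between the values at 6 h and 24 h, and in 184 it was nearer to that at 24 h. The 266 were chosen for a wide gap between those values, into which a 12 h value falls more easily. The share over all members was not computed, so both counts are a description only. AT4G33550 and AT2G37870 were far along by 12 h, with responses of 1.5 and 1.57. AT1G80130 and AT4G22212 were still near their 6 h values, with 0.21 and -0.14, and AT1G13650 stood at 0.04 between its opposite responses.

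**Figure D4:**
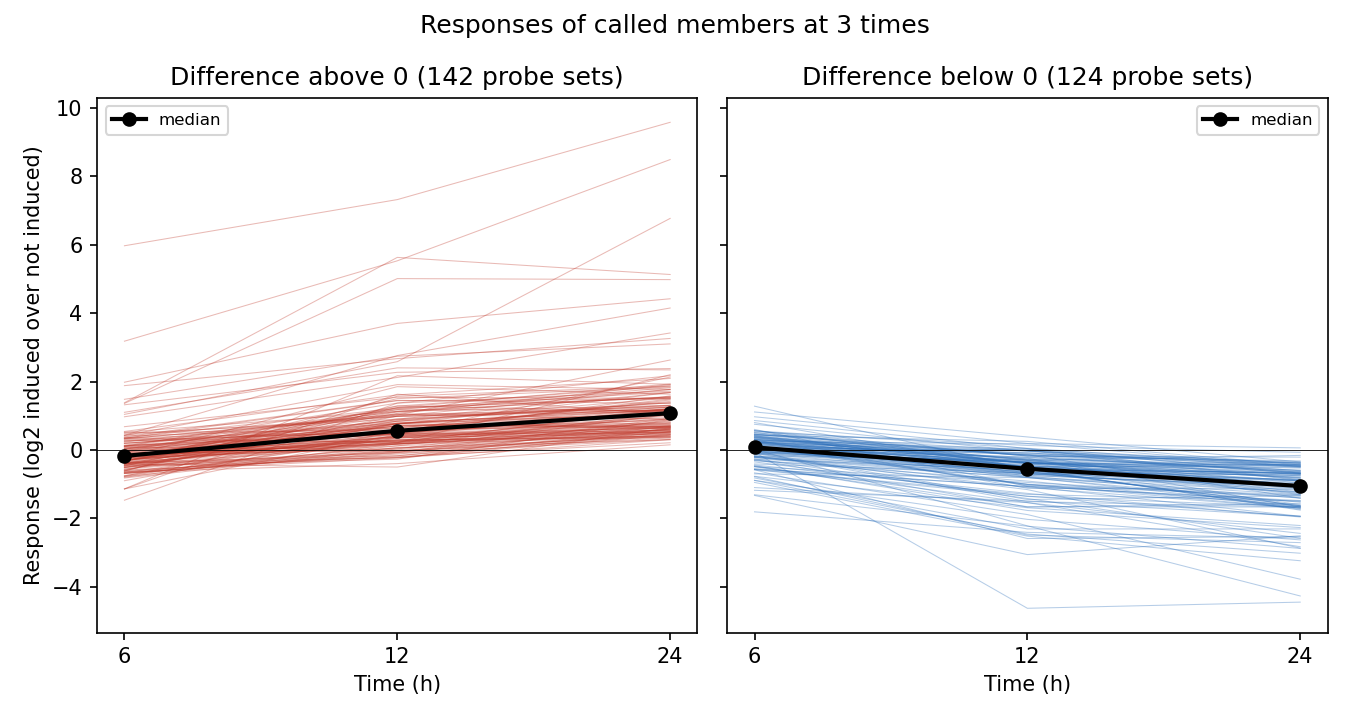
Response to induction (log2, induced over not induced) at 3 times, 6 h, 12 h and 24 h, for the 142 members with a positive (left, red) and the 124 with a negative called difference (right, blue), each thin line a probe set and the black line the median. The medians move from -0.17 to 1.07 and from 0.07 to -1.06.

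Pathway lists were matched by name to the annotation. Of 35 lists, 29 had a member and 7 a called one, each with 1 call. In the list of abscisic acid, cold and dehydration genes COR15A was the only 1 of 5 to pass, and the other 4 had differences of 0.28 for COR47, 0.58 for LTI30, 1.06 for COR15B (adjusted p = 0.0771) and 1.71 for LEA4-5 (adjusted p = 0.437). The median of 1.06 stood above the -0.02 of all members. Responses at 24 h were -0.13 for COR47, 0.25 for LTI30, 1.3 for COR15B and 2.08 for LEA4-5. The list of late embryogenesis abundant and dehydrin genes, which did not match AT3G02480, had 0 of 3 past the test. Differences in that list were 0.37 for AT1G54410, 0.42 for AT2G44060 and -0.16 for AT2G46140. Autophagy genes, which encode the conjugation system that forms autophagosomes, had 0 of 11 past the test (ATG8B was nearest at 1.05, adjusted p = 0.0774), a positive difference in 10 of 11 and a median of 0.42. The difference was positive in 47.4% of all members. At an unadjusted p under 0.05, 5 of the 11 passed, against 13.1% of all tested probe sets. Autophagy was not alone in this: 5 of 7 glutathione transferases, 8 of 24 UDP-glycosyltransferases and 4 of 13 expansins also had an unadjusted p under 0.05.

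Wall-loosening expansins had 1 of 13 past the test, EXLB1, with a median of -0.11, and EXPA8 had -1.35 ± 0.32 in the other direction (adjusted p = 0.0558). The root hair expansins EXPA7 and EXPA18 had responses of -1.52 and -0.87 at 6 h and -2.01 and -1.6 at 24 h, and their differences of -0.49 and -0.73 did not pass (adjusted p = 0.658 and 0.299). The peroxidase list had 1 of 6 past the test (AT5G64120, median 0.02), but 1 of the 6, PRXIIF, is a peroxiredoxin that matched by name. Glutathione transferases had 1 of 7 (GSTU22, median -0.14), UDP-glycosyltransferases 1 of 24 (UGT72E1, median -0.11), and extensins and arabinogalactan proteins 1 of 2 (HRGP1). ACT11 was the only member of the pollen list and passed. These counts cover only genes whose annotation names matched, and leave out relatives with a called difference. Among these were the peroxidases AT3G01190 (-2.29), AT2G18980 (-0.77) and AT5G64100 (-0.74), and in the opposite direction AT5G51890 (0.87 ± 0.19, adjusted p = 0.0363). Others were the extensin-like AT1G23720 (-1.58) and, in the opposite direction to UGT72E1, the UDP-glycosyltransferase UGT84A3 (0.81 ± 0.18, adjusted p = 0.0442).

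None of 7 genes of the photosynthetic light reactions, 16 glycoside hydrolases, 11 cytochrome P450 genes or 11 genes in the list of sugar transport and starch passed in limma's test, with medians of 0.14, -0.01, 0.05 and 0.07, and 0, 3, 1 and 3 of them had an unadjusted p under 0.05. The last list includes SWI3A, a chromatin remodelling protein that matched by name. In it SWEET4, a sugar transporter, had 1.49 ± 0.38 (adjusted p = 0.07). The hydrolase list did not match the chitinase AT2G43620, which passed (1.54 ± 0.23, adjusted p = 0.00351). Likewise, the list of sugar transport and starch did not match APL3 of starch synthesis, which passed (1.77 ± 0.38, adjusted p = 0.0362). The jasmonate list had 0 of 3 past the test and 3 at an unadjusted p under 0.05, with differences of -1.44 for PDF1.2 and -2.28 for PDF1.2b, both plant defensin genes, and 1.2 for JRG21 (adjusted p = 0.211, 0.172 and 0.153). Transcription factor lists were small, and in WRKY (4), MYB (2), bHLH (5), NAC (1) and zinc finger (1) factors 0 passed, also at an unadjusted p under 0.05.

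**Figure D5:**
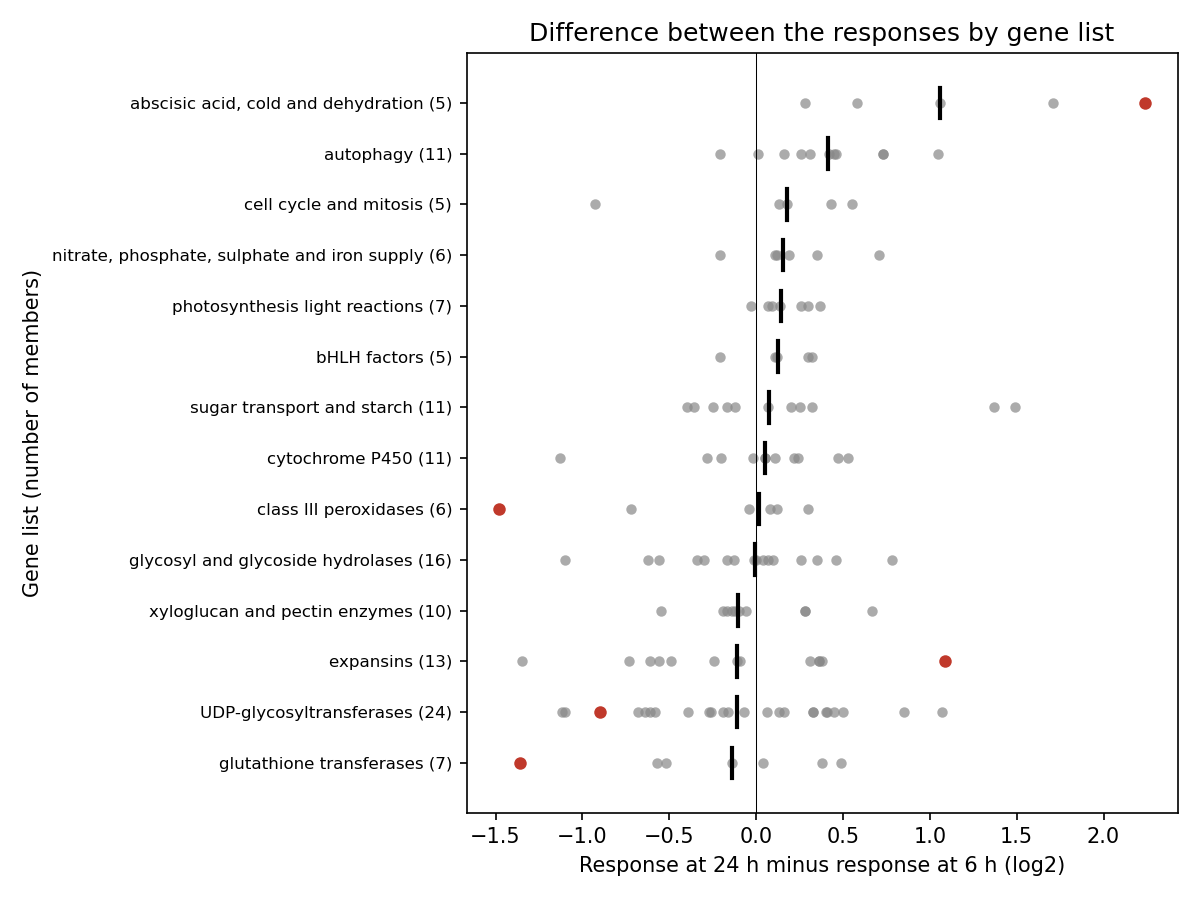
Response at 24 h minus response at 6 h (log2, horizontal axis) of the members of each gene list with at least 5 members, with called members in red, others in grey and the list's median as a black bar. Each list has at most 1 called member, and the cold and dehydration list and the autophagy list have the highest medians, 1.06 and 0.42.

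Among called members without a gene name in the annotation, some had larger differences than most named genes. Those shown were chosen after their values were seen. The probe set 251252_at gave 0.54, 0.26 and 2.72 without and 4.62, 17.8 and 3.38 with induction at 6 h, and 2.03, 1.21 and 1.05 against 472, 381 and 667 at 24 h, a response of at least 113-fold at that time. It was a member only through that group, the others averaging 3.74. Its fitted difference, which depends on signals below background, was 5.31 ± 1.07 (adjusted p = 0.0267). In the other direction 254550_at gave 26.6, 13.0 and 20.9 against 13.5, 27.9 and 16.8 at 6 h, where the groups overlapped, and 151, 258 and 182 against 3.37, 13.9 and 14.5 at 24 h, where they did not. Without the plants not induced at 24 h its mean was 16.7, under the minimum. Its difference was -4.38 ± 0.66 (adjusted p = 0.00362).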

How the data were processed

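Biotin-labelled total RNA of whole plants was measured on ATH1 arrays. The deposited values are intensity values on a linear scale, with MAS5 and GCOS as the tools per the submitters' processing notes. The sources used here do not state tool versions or a scaling target. Of 22810 probe sets, 64 controls were left out. Genes were named from the platform annotation, updated through RefSeq (13436 of 13513 probe sets with 1 gene matched), and only from probe sets with 1 gene. Groups came from the sample labels, 3 arrays each.

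Log2 signals of the 12 arrays were fitted with 4 group means in limma 3.58.1 (R 4.3.3), with empirical Bayes moderation and an intensity trend (8 residual and 7.66 prior degrees of freedom). Benjamini-Hochberg adjustment ran over all 22746 probe sets, per contrast, with a threshold of 0.05. Errors given with ± are moderated standard errors. Where a group lay at or below background on all 3 arrays, folds are lower bounds, taken from the other group's mean log2 signal and the background level. The 12 h responses are differences of mean log2 signals, not part of the fit. Tables and figures used Python 3.11.15, pandas 2.3.3 and matplotlib 3.10.9. On simulated data with 200 changed probe sets, 53% of 2-fold and 92% of 4-fold differences between the responses were recovered, and 9 unchanged probe sets were called.

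The members and lists were chosen with earlier results of these data known. Named genes were, among called members with 1 gene, the 12 most positive and 12 most negative, the 4 with the largest difference among those with opposite signs of at least 0.5 at both times, the 3 brightest in each direction, up to 2 per list, and MGH3, TET11 and COR15A. Other genes named from the lists, relatives named beside them, and those at the signal minimum, were chosen after their values were seen. Alternatives were other normalizations, a filter at the 40th percentile of mean signal (22), an offset of 5, signals raised to background, array weights and no trend. Others were a block for the replicate number, all 18 arrays, the hybridisation controls as a covariate (their first principal component), and leaving out each array.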

Additional observations from a re-analysis of the deposited data

Results flagged for a closer look

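For 35 named genes the test found that the response at 24 h differed from that at 6 h, which is what marks them here. All values are the response at 24 h minus the response at 6 h on the log2 scale. Positive differences were found in COR15A with 2.24, AT3G02480 with 3.06, AT1G51090 with 2.36, AT1G16850 with 2.19, AT2G38905 with 2.45, AT4G33550 with 2.15 and AT2G37870 with 2.49. AT1G71470 had 5.73, AT1G80130 had 2.38, AT3G12510 had 2.08, AT5G22460 had 2.01 and AT1G11210 had 2.0. Smaller positive differences were 1.09 for EXLB1, 0.83 for ACT11, 0.74 for AT2G46600 and 0.64 for CYS1.

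Negative differences were -2.29 for AT3G01190, -1.48 for AT5G64120, -1.58 for AT1G23720, -1.31 for HRGP1 and -0.9 for UGT72E1. Further values were -4.3 for AT2G19970, -3.1 for AT1G52060, -1.11 for JAL34 and -1.56 for AT4G22212. The remaining genes had -2.13 for AT5G48430, -1.81 for AT1G51830, -1.75 for AT5G66985, -1.68 for AT3G25930, -1.59 for MSRB6, -1.56 for AT3G54040, -1.54 for AT1G13650, -1.36 for AT5G44020, -1.36 for GSTU22 and -0.81 for AT2G10940.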

How the results depend on the processing

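No named gene changed direction in any of the alternatives run. Of the 35 called named genes, 9 kept their call in all of them (AT2G37870, AT2G38905, AT1G51090, COR15A, AT4G33550, AT5G48430, AT1G51830, AT4G22212 and GSTU22). Without the intensity trend 26 lost it, 8 of them in no other alternative, and 16 lost it with at least 1 array left out. With the hybridisation controls as a covariate 10 lost it: AT3G02480, AT1G80130, AT1G16850, AT5G22460, AT1G11210, MSRB6, AT2G46600, CYS1, ACT11 and UGT72E1. The count of differences was 280 over all tested probe sets and 266 over members. It was 511 and 446 with signals raised to background, 21 and 19 without the intensity trend, 530 and 493 with array weights, and 100 and 99 with the hybridisation controls as a covariate, where 40 of the 100 were higher against 149 of 280. The count of responses at 6 h, 151, was 264 with signals raised to background, 71 without the trend and 98 with the covariate. That at 24 h, 1654, was 1006 without the trend and 2762 with array weights. With 1 median for all arrays, 70 were higher and 90 lower at 6 h (89 and 62 otherwise), and 709 and 983 at 24 h (884 and 770 otherwise). The cause of these changes was not tested.

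Leaving out each array gave 101 to 456 differences over all probe sets, 95 to 432 over members, 63 to 177 responses at 6 h and 958 to 1807 at 24 h. Member counts moved by over 1.5 times without not induced 6 h replicate 2 (153) and 3 (173), induced 6 h replicate 2 (165) and 3 (151), not induced 24 h replicate 2 (112) and 3 (96), and induced 24 h replicate 1 (432), 2 (131) and 3 (95). With the replicate number as a block the counts were 218, 209, 116 and 1545. Deviations of same-numbered arrays correlated at -0.158 to 0.121, so no strong shared deviation was seen. Such weak values cannot show whether the numbers pair the samples, and 7 named calls were lost with the block. Signals near background limit the fitted folds of AT1G71470, MGH3, TET11, AT2G19970, AT1G52060 and AT5G48430. Over the alternatives the differences of AT1G52060 and AT5G48430 were as small as -2.26 and -1.4.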

Other observations

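The genes below are called members outside the named rule, chosen after their values were seen, and they stand for no group. RTE1 (AT2G26070), a regulator of the ethylene receptor ETR1, gave 60.0, 47.7 and 32.1 without and 52.1, 52.3 and 42.6 with induction at 6 h, where the groups overlapped. At 24 h it gave 48.8, 46.6 and 37.8 against 141, 157 and 153, and the responses differed by 1.66 ± 0.27 (adjusted p = 0.00679 in limma's test). The change was in the induced plants, 1.63 on the log2 scale against -0.03 without induction. APL3, a large subunit of the enzyme that makes ADP-glucose for starch, had a difference of 1.77 ± 0.38 (adjusted p = 0.0362) and responses of 0.36 at 6 h and 2.13 at 24 h.

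MGL, a methionine-degrading enzyme, had a difference of 1.81 ± 0.25 (adjusted p = 0.00314), with changes of -1.14 without and 0.67 with induction. BETA-VPE, a vacuolar processing protease, had 1.43 ± 0.22 (adjusted p = 0.00498), and PPDK, which makes phosphoenolpyruvate from pyruvate, had 1.0 ± 0.17 (adjusted p = 0.00744). XERICO, a RING-type protein that raises abscisic acid when overproduced, had 0.85 ± 0.18 (adjusted p = 0.0343) and responses of 0.19 at 6 h, 0.84 at 12 h and 1.03 at 24 h. Lower responses at 24 h were found in CHLI2, a subunit of the magnesium chelatase of chlorophyll synthesis (-0.62 ± 0.14, adjusted p = 0.0415), and in AT1G73600 (-0.67 ± 0.15, adjusted p = 0.0461).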
